A study of Homo sapiens with 20 samples.

Results

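Of 372133 sites of accessible chromatin in SW872 cells, 7060 had a called peak with TAZ-CAMTA1 and with CAMTA1 and with none of 5 other vectors, which is 1.90% of all sites. SW872 is an established human liposarcoma cell line. ATAC-seq reads out where a transposase can reach the DNA, and had been run on cells stably transduced with a retroviral pBabeNeo vector. The vectors were empty (EV) or carried TAZ4SA or YAP5SA, which are TAZ and YAP with serines changed to alanine, full-length CAMTA1 or TFE3, or the fusion TAZ-CAMTA1 or YAP-TFE3; the labels write the last as Yap5SA-TFE3. The proteins carried a Flag tag, and each line was a pool of cells selected with G418. There were 20 libraries, 2 for TFE3 and 3 for every other vector, with the third EV library titled a redo. The deposited data are 1 peak list per vector in hg19 coordinates, so every value below describes a list and has no replicate error, and the reads behind each list are unknown. To find the 7060 sites, peaks of all 7 lists that overlapped by 1 bp or more were merged, and each merged site was given the lists with a peak in it.

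TAZ (the product of WWTR1) and YAP are transcriptional coactivators restrained by the Hippo pathway, and they reach DNA through the TEAD transcription factors. CAMTA1 is a calmodulin-binding transcription activator. The fusion that defines most epithelioid hemangioendotheliomas, a vascular sarcoma, joins the N terminus of TAZ with its TEAD-binding domain to the C terminus of CAMTA1, so TAZ-CAMTA1 and full-length CAMTA1 share that C terminus. The sites held by these lists alone were called with both proteins that have this C terminus. They were not called with the empty vector, with activated TAZ or YAP, with TFE3, or with the other fusion. Whether the shared C terminus has a part in them was not tested. Of the 21 pairs of lists, TAZ-CAMTA1 with YAP-TFE3 alone held the most sites, 11730, and TAZ-CAMTA1 with CAMTA1 the next most. CAMTA1 with YAP-TFE3 alone held 5353. The TAZ-CAMTA1 and CAMTA1 lists had 236893 and 223651 peaks. The sites were chosen by whether a peak was called in each list, so the widths, areas and summit values below are descriptions of the chosen sites and no test was run on them. The study's RNA-seq methods state that lines containing CAMTA1 were harvested before confluence and the other lines at confluence, and do not spell out whether this takes in TAZ-CAMTA1. Confluence is not stated for the ATAC-seq cultures, and its part in these sites was not tested.

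The sites were narrow. Their median width was 139 bp (95% binomial interval 137 to 142), with 5% under 88 bp and 5% over 390 bp. The sites of all 7 lists had a median of 1226 bp, while all 53314 sites of 2 lists had 150 bp. The median was 149 bp for TAZ-CAMTA1 with YAP-TFE3 and 143 bp for CAMTA1 with YAP-TFE3. It was 96 bp for TAZ-CAMTA1 alone and 91 bp for CAMTA1 alone, so narrow width was not particular to this pair. Only 142 of the 7060 sites (2.01%) reached 500 bp and 1 reached 1000 bp, at 1124 bp. In 6918 sites (98.0%) each list contributed a single peak. A second or further peak was present in 63 sites for TAZ-CAMTA1 and in 82 for CAMTA1.

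Within the sites, TAZ-CAMTA1 peaks covered a median of 105 bp and CAMTA1 peaks a median of 100 bp. Many were close to the same size: 48.1% of the TAZ-CAMTA1 peaks and 51.9% of the CAMTA1 peaks were between 80 and 120 bp wide, against 25.7% and 26.4% of all peaks of those lists. A width of exactly 100 bp was found at 580 sites for TAZ-CAMTA1 and at 752 for CAMTA1. The upper tails differed somewhat, with a 95th percentile of 346 bp for TAZ-CAMTA1 and 277 bp for CAMTA1.

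**Figure D1:**
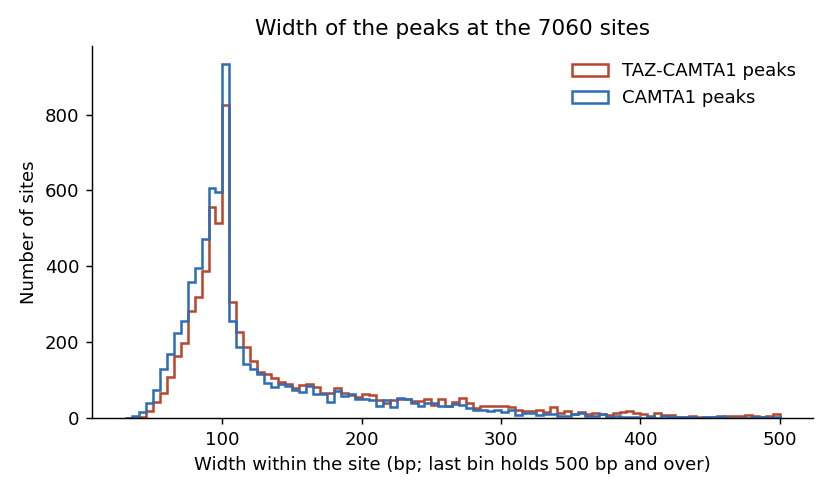
Histogram of the number of sites (vertical axis) by the width in bp that the peaks of each list cover in the site (horizontal axis, bins of 5 bp), for the TAZ-CAMTA1 and CAMTA1 lists. Widths over 500 bp are not drawn, although the axis label places them in the last bin. They reached 959 bp for TAZ-CAMTA1 and 712 bp for CAMTA1. Both distributions have 1 sharp maximum at 100 bp, and the TAZ-CAMTA1 curve lies above the CAMTA1 curve over most of the range beyond it.

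Each peak has an area under the curve of the peak caller's statistic, which combines height and width, and a −log10 p at its summit, which measures height alone. Areas are summed over the peaks of a list in a site, and the highest summit is taken. The TAZ-CAMTA1 area had a median of 54.9 (95% interval 53.7 to 56.2) and ran from 20 to 893. The CAMTA1 area had a median of 48.0 (46.9 to 49.1) and ran from 20 to 495. Both ranges begin at the lowest area found in any list, 20, and 1488 of the sites (21.1%) had a smaller area under 25. A smaller area of 100 or more was reached by 367 sites (5.20%) and of 200 or more by 20.

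The summits were low as well. The median for TAZ-CAMTA1 was a −log10 p of 3.94 (5th to 95th percentile 3.43 to 5.07) and for CAMTA1 3.96 (3.47 to 4.97). All peaks of these lists had medians of 4.69 and 4.80. Both summits reached 4 at 1616 sites (22.9%) and 5 at 45 sites (0.637%). Ranked by area within their own list, the TAZ-CAMTA1 peaks of the sites had a median percentile of 26.4, with 789 of 7124 (11.1%) above the middle of the list. The CAMTA1 peaks had a median percentile of 22.9, with 381 of 7143 (5.33%) above the middle. The highest percentile was 78.6 for TAZ-CAMTA1 and 72.0 for CAMTA1.

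The area was larger in the TAZ-CAMTA1 list at 3958 of the 7060 sites, or 56.1% (Wilson 95% interval 54.9 to 57.2%, which covers counting error only). Over all 139949 sites with a peak of both lists, that call was met by 64.6%. The summit was higher in TAZ-CAMTA1 at 49.1% of the sites (48.0 to 50.3%), an interval that includes 50%, against 56.3% over all sites with both. The area includes width and the summit value does not, so the measures can differ at a site. Both pointed to TAZ-CAMTA1 at 3168 sites (44.9%) and both to CAMTA1 at 2801 (39.7%). At 790 sites (11.2%) the area was larger in TAZ-CAMTA1 and the summit higher in CAMTA1, and at these sites the TAZ-CAMTA1 peaks had a median width of 113.5 bp and the CAMTA1 peaks 96 bp. The opposite split was found at 301 sites (4.26%), where the medians were 95 bp for TAZ-CAMTA1 and 100 bp for CAMTA1.

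The middle of the area ratios was near 1, with a wide spread. The median log2 ratio of TAZ-CAMTA1 to CAMTA1 was 0.18 (95% interval 0.15 to 0.22), and the 5th and 95th percentiles were -1.70 and 2.19. An area at least 2-fold larger in TAZ-CAMTA1 was found at 1814 sites (25.7%), where 21.8% of all sites with both lists met that call. An area at least 2-fold larger in CAMTA1 was found at 1101 sites (15.6%), against 10.5%. These backgrounds include the 7-list sites, where the calls were met by 8.82 and 5.46%. At sites of 3, 4, 5 and 6 lists the call for TAZ-CAMTA1 was met by 30.2, 34.5, 34.8 and 30.1%, all above the 7060 sites, and the call for CAMTA1 by 16.8, 15.7, 14.3 and 11.8%. Areas in the lists were weakly related from site to site: across the 7060 sites the Spearman rho was 0.15 for area and 0.12 for summit −log10 p. Across the 60372 sites of all 7 lists it was 0.94 and 0.91. All points of a correlation come from the same pair of lists, and the 7060 sites cover a far narrower range of areas than the 7-list sites, whose median areas were 2106 and 1906; the part of that range in the coefficients was not tested.

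**Figure D2:**
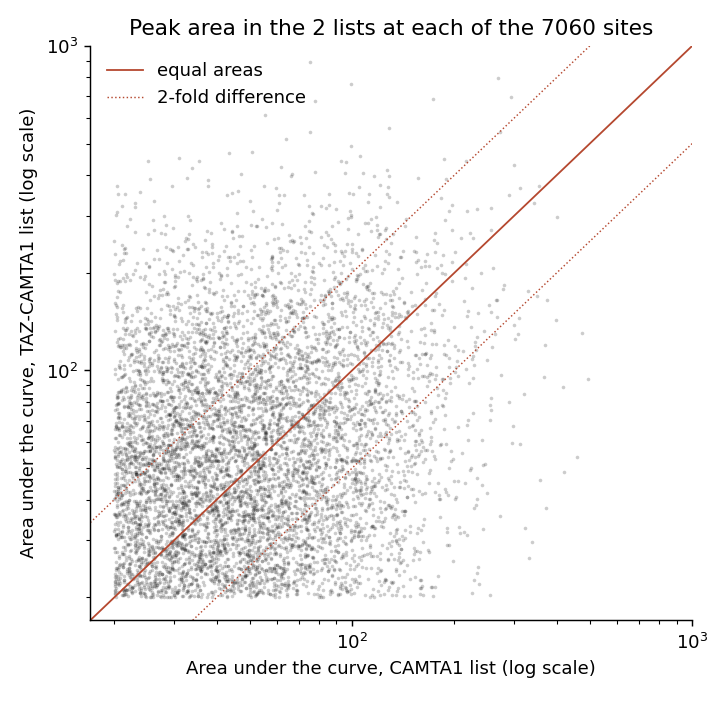
Area under the curve in the TAZ-CAMTA1 list (vertical axis) against that in the CAMTA1 list (horizontal axis), both on log scales, with 1 point for each of the 7060 sites, a solid line at equal areas and dotted lines at a 2-fold difference. The cloud starts at an area of 20 on both axes and fills both sides of the solid line, with 56.1% of the points above it.

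The share with the larger area in TAZ-CAMTA1 was set beside that of sites held by more lists. It was 58.7% at sites of 3 lists that include both, 62.8% at 4 lists, 64.9% at 5, 67.9% at 6 and 65.9% at 7. The share with the higher summit in TAZ-CAMTA1 was 52.2, 56.3, 59.0, 62.0 and 55.0% in the same order. The 7060 sites were thus the lowest of these groups by either measure, and the order was not monotonic, since the 7-list sites lay below those of 6 lists. Width and area rose along the same series, from a median width of 206.5 bp at 3 lists to 524 bp at 6 and 1226 bp at 7.

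**Figure D3:**
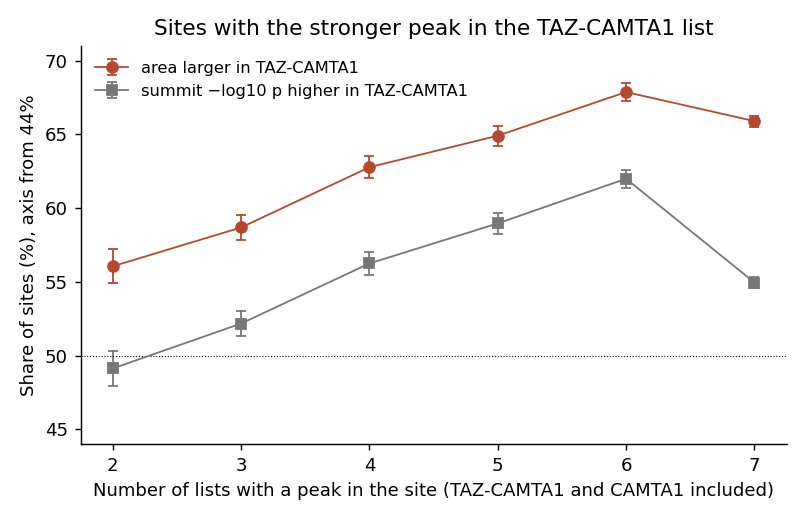
Share of sites (vertical axis, starting at 44%) with the larger area or the higher summit in the TAZ-CAMTA1 list, by the number of lists with a peak in the site (horizontal axis), with Wilson 95% intervals. At the 2-list sites 56.1% have the larger area and 49.1% the higher summit in TAZ-CAMTA1; the area share is highest, 67.9%, at 6 lists.

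At sites of 3 lists the share was also read by which list joined the pair. Sites of TAZ-CAMTA1, CAMTA1 and YAP-TFE3, 7996 in number, had a larger TAZ-CAMTA1 area at 59.8% (58.8 to 60.9%). The share was 60.5% (57.8 to 63.1%) at the 1323 sites that EV joined and 58.9% (55.9 to 61.9%) at the 1023 that TFE3 joined. With YAP5SA it was 55.1% (53.1 to 57.0%) at 2435 sites, and with TAZ4SA it was 51.7% (47.0 to 56.4%) at 429 sites. The last interval includes 50%, and the intervals of the TFE3, YAP5SA and TAZ4SA groups overlap that of the 7060 sites.

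Within the 7060 sites the share with the larger TAZ-CAMTA1 area was higher in the stronger classes. It was 55.0% (52.5 to 57.6%) where the smaller area was under 25, 55.1% (53.5 to 56.8%) from 25 to under 50, 57.8% (55.4 to 60.1%) from 50 to under 100, and 60.5% (55.3 to 65.5%) from 100 to under 200. Among the 20 sites with a smaller area of 200 or more it was 80% (58.4 to 91.9%). The intervals of neighbouring classes overlap. The summit share showed no such course, at 48.3, 50.03, 48.5, 45.8 and 70% in the same classes. Sites in the stronger classes were wider, with median widths of 113.5, 132, 174, 266 and 521 bp. The classes are cut by area, which includes width, so this rise follows in part from how they were made.

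In the 6918 sites with a single peak of each list, the peaks overlap by the rule. Their closeness is thus set in part by the choice of sites and by narrow peaks. Their summits lay a median of 20 bp apart, and within 10 bp at 2242 of them (32.4%) and within 50 bp at 5347 (77.3%). At 650 sites (9.40%) the summits were more than 100 bp apart. The peaks shared a median of 83 bp, overlapped by at least 50% of both at 4940 sites (71.4%), and lay wholly one inside the other at 3287 (47.5%). At the 33992 sites of all 7 lists with 1 peak of either list, the median summit distance was 12 bp, and 47.1% were within 10 bp. Sites of all 7 lists had a median width of 1226 bp, so the overlap rule limits summit distances less there.

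Few sites lay within 10 bp of the overlap limit, but their place depended on the rule itself. Merging touching peaks kept 99.97% of the reported sites, and asking for an overlap of 50% of both peaks kept 70.0%. Windows of 250 bp to each side of summits kept 47.1%, and merging peaks up to 500 bp apart kept 35.2%. At 33 sites the TAZ-CAMTA1 and CAMTA1 peaks overlapped by 10 bp or less, with a median smaller area of 31.9. Just outside were 19 sites of TAZ-CAMTA1 alone with a CAMTA1-only site within 10 bp, with a median area of 47.1. A peak of another list lay within 10 bp of 30 of the sites, with a median smaller area of 33.8. Just outside on that side were 12 sites of both lists and 1 more whose peak overlapped theirs by 10 bp or less, with a median smaller area of 39.2.

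Peaks of the other 5 lists were often close by. The nearest lay a median of 315 bp from the site (95% interval 305 to 324), within 200 bp at 2675 sites (37.9%) and within 1000 bp at 5022 (71.1%). Only 346 sites (4.90%) had none within 10000 bp. By list, the median distance was 555.5 bp to YAP-TFE3, 874 bp to YAP5SA, 1126 bp to EV, 1187 bp to TFE3 and 2438 bp to TAZ4SA. These lists held 235795, 230886, 171102, 156421 and 152702 peaks, and this order of length is also the order of distance, the longest list being the nearest. A YAP-TFE3 peak lay within 200 bp of 25.4% of the sites and a TAZ4SA peak within 200 bp of 6.53%.

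The sites were set against those open in all 7 lists, called constitutive sites here. The median distance to the nearest was 3683 bp (95% interval 3505 to 3960), with quartiles of 623 and 12760 bp. A constitutive site lay within 1000 bp of 2082 sites (29.5%, 28.4 to 30.6%) and within 10000 bp of 4934 (69.9%, 68.8 to 70.9%). At 133 sites (1.88%) it was more than 100000 bp away. Sites of TAZ-CAMTA1 and YAP-TFE3 alone, 11730 in number, had a median of 4992 bp, and the 5353 of CAMTA1 and YAP-TFE3 alone had 6083 bp. Sites found in TAZ-CAMTA1 alone had 4260 bp, and those in CAMTA1 alone 4717.5 bp.

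Of the 21 pairs of lists, TAZ-CAMTA1 with CAMTA1 had the shortest median distance to a constitutive site. The next were TAZ-CAMTA1 with TAZ4SA at 3741 bp and with YAP5SA at 3810 bp, both inside the interval of the 7060 sites, so counting error alone covers the gaps between these 3 pairs. The longest median was 11234 bp, for TAZ4SA with YAP5SA, whose sites also had the largest median width of the 21 pairs, 224 bp.

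**Figure D4:**
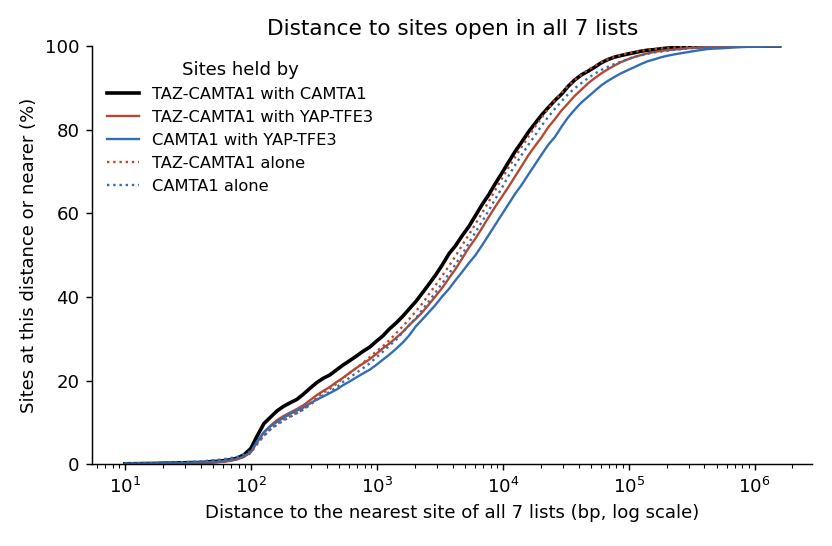
Cumulative share of sites (vertical axis, %) by distance to the nearest site of all 7 lists (horizontal axis, bp, log scale), for the 7060 sites of TAZ-CAMTA1 with CAMTA1 and 4 other groups. Every curve turns up sharply just above 100 bp, and that of the 7060 sites passes 69.9% at 10000 bp, against 64.2% for TAZ-CAMTA1 with YAP-TFE3 and 60.1% for CAMTA1 with YAP-TFE3.

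Distances just over 100 bp were frequent. There were 255 sites nearer than 100 bp to a constitutive site, 582 from 100 to under 150 bp, 184 from 150 to under 200 bp and 121 from 200 to under 250 bp. No list held neighbouring peaks closer than 101 bp, so a TAZ-CAMTA1 or CAMTA1 peak beside a constitutive site lies at least that far from the peak of its own list there. The sites under 200 bp away, 1021 in number, had median areas of 55.0 in TAZ-CAMTA1 and 48.6 in CAMTA1 and a median width of 133 bp. The 133 sites at 100000 bp or more had median areas of 52.5 and 48.0 and a median width of 126 bp. The share with the larger TAZ-CAMTA1 area lay between 53.4 and 57.5% in 5 classes of distance, and all their intervals overlapped.

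The nearest site of any kind was a constitutive site for 1555 of the 7060 (22.0%), while these make up 16.2% of all sites. It was a site of TAZ-CAMTA1 alone for 896 (12.7%, against 9.35% of all sites) and of CAMTA1 alone for 503 (7.12%, against 5.65%). Sites of 4 other single lists were less often the neighbour than their number among all sites: YAP5SA alone at 5.20% against 10.5%, YAP-TFE3 alone at 3.97% against 8.07%, TAZ4SA alone at 1.78% against 4.92% and EV alone at 1.66% against 3.33%. For TFE3 alone it was 0.382% (0.263 to 0.556%) against 0.409%. The excess over the share of all sites was not limited to constitutive sites. That share takes no account of the width of sites or of their placement along chromosomes. Sites of 4, 5 and 6 lists were the neighbour at 7.41, 6.95 and 8.64%, against 6.37, 5.67 and 6.61% of all sites. Sites of 1 list were the neighbour at 32.8%, against 42.3%. Neighbours were not read for other pairs.

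Along the genome, all but 6 of the sites lay on assembled chromosomes. Chromosome 1 held the most, 668 (9.46%, 95% interval 8.80 to 10.2%), followed by chromosome 5 with 573 (8.12%) and chromosome 2 with 550 (7.79%). Per Mb the highest density was 4.88 on chromosome 20, followed by 4.22 on chromosome 17 and 3.70 on chromosome 16. The lowest among the autosomes was 0.895 on chromosome 13, and the X chromosome had 0.992.

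The shares were then set against those of all sites. Chromosome 13 held 103 of the 7060 sites, 1.46% (1.21 to 1.77%) where it held 3.97% of all sites, a ratio of 0.368. It also held few constitutive sites, 2.45%, against which the ratio was 0.596. Chromosome 5 held 10.7% of all sites, so that its 8.12% gave a ratio of 0.757, but 0.960 against constitutive sites. Chromosome 17 lay at the other end, with 343 sites or 4.86% (4.38 to 5.39%) against 3.56% of all sites, a ratio of 1.36, and 1.21 against constitutive sites. The ratio to all sites was 1.21 on chromosome 1 and 1.20 on chromosome 16.

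TAZ-CAMTA1 with YAP-TFE3 and CAMTA1 with YAP-TFE3 were the only other pairs read by chromosome, and they shared part of this profile. Their ratios were 0.604 and 0.659 on chromosome 5, 1.32 and 1.07 on chromosome 17, and 1.18 and 1.10 on chromosome 1. On other chromosomes the pairs differed in size or direction. On chromosome 19 the ratio was 0.971 for the 7060 sites, 1.85 for TAZ-CAMTA1 with YAP-TFE3 and 1.09 for CAMTA1 with YAP-TFE3. On chromosome 13 these pairs had 0.608 and 0.664, above the 0.368 of the 7060 sites. On chromosome 9 the 7060 sites had 1.07 and the other pairs 0.782 and 0.876. On chromosome 10 they had 1.15, against 1.34 and 1.57.

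**Figure D5:**
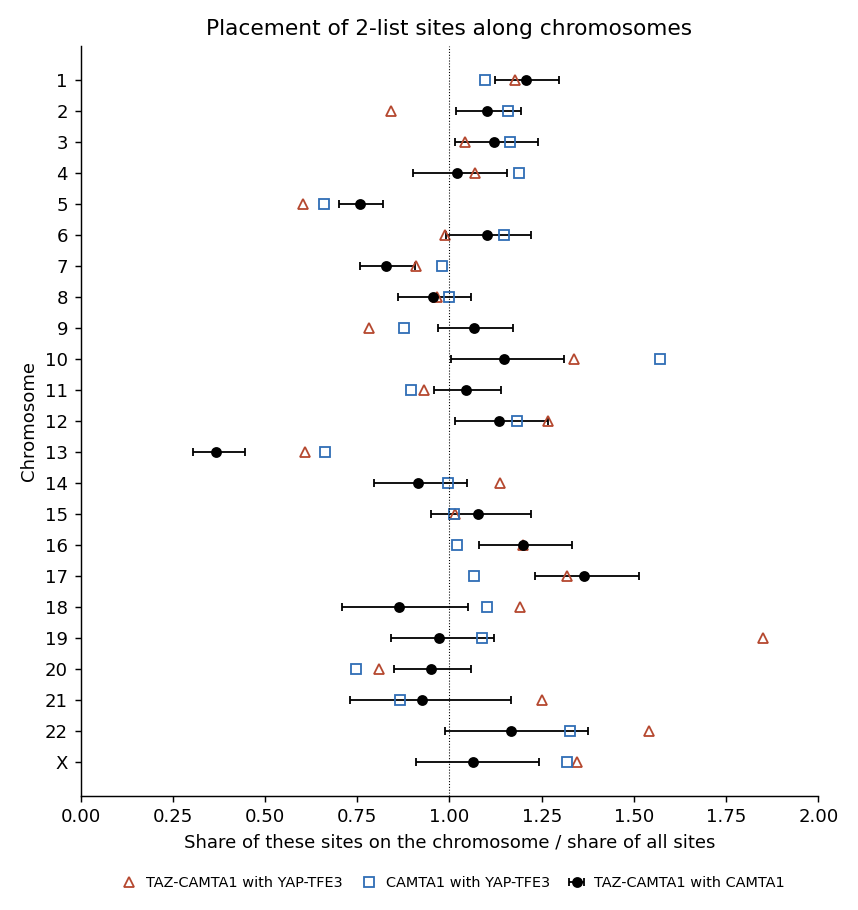
For each chromosome (vertical axis; Y, with 1 site, left out), the share of the 7060 sites that lies on it divided by the share of all sites (filled circles; bars are Wilson 95% intervals of the share divided in the same way), with the ratio for 2 other pairs of lists as open symbols without intervals. Chromosome 13 is lowest at 0.368 and chromosome 17 highest at 1.36 for the 7060 sites, and chromosome 19 has the widest gap, with 1.85 for TAZ-CAMTA1 with YAP-TFE3.

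The balance of the lists was read by chromosome. The area was larger in TAZ-CAMTA1 at over 50% of the sites on each of 22 autosomes, with an interval wholly above 50% on 15 of them, from 52.2% on chromosomes 9 and 21 to 61.1% (53.8 to 67.9%) on chromosome 19. On the X chromosome it was 48.7% (40.9 to 56.5%) of 154 sites. Near the ends of chromosomes the share was slightly above that of all sites: 25.3% (24.3 to 26.3%) of the sites lay within 10 Mb of the first or last position, against 23.6% of all sites and 26.2% of the sites of CAMTA1 alone. For TAZ-CAMTA1 with YAP-TFE3 it was 22.0%.

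Of 2826 windows of 1 Mb with any site, 1874 held at least 1 of the 7060 sites, with a median of 3 among these, and 110 held 10 or more. Of the 952 windows without any, 60 held 20 or more constitutive sites. Across windows the count had a Spearman rho of 0.78 with that of constitutive sites, 0.80 with that of TAZ-CAMTA1-only sites, 0.75 with CAMTA1-only sites and 0.53 with sites of CAMTA1 and YAP-TFE3. These counts share windows and lists, and the rho with all sites of a window was likewise 0.78.

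The richest window, on chromosome 3 from 13000001 to 14000000, held 24 of the sites among 458 sites in all, with 12 of the 24 larger in TAZ-CAMTA1. Then came 3 windows with 21 sites each. The window on chromosome 4 from 189000001 to 190000000 had the highest share of these 4 windows, 7.75% of its 271 sites, with only 17 constitutive sites beside 53 sites of TAZ-CAMTA1 alone. On chromosome 7 from 131000001 to 132000000 the 21 were 4.35% of 483 sites, and on chromosome 9 from 138000001 to 139000000 they were 3.44% of 610.

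Most sites stood alone: 1331 of the 7060 (18.9%, 18.0 to 19.8%) had another within 10 kb. For other pairs of lists this was 26.3% of the 11730 sites of TAZ-CAMTA1 with YAP-TFE3 and 14.7% of the 5353 of CAMTA1 with YAP-TFE3. Sites of TAZ-CAMTA1, CAMTA1 and YAP-TFE3, 7996 in number, gave 17.8%, and these sets differ in size. Sites linked by gaps of at most 10 kb formed 517 groups of 2, 80 of 3, 10 of 4, 2 of 5 and 1 of 7. The group of 7 spanned 25286 bp on chromosome 7, from 131354767 to 131380052, in the window named above. Its sites were larger in TAZ-CAMTA1 at 5 of 7 and had median areas of 75.1 and 60.1. The groups of 5 were both on chromosome 9, from 139224050 to 139232467 and from 136389741 to 136401414. In the group of 4 with the shortest span, 1963 bp on chromosome 5 from 137079915, all 4 sites were larger in CAMTA1. These groups were picked for their size after the values were seen.

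The 10 sites with the largest smaller-of-2 area show the upper end of the set. They were larger in TAZ-CAMTA1 by area at 8 of 10 and by summit at 8 of 10. The first lay on chromosome 7 from 22160317 to 22160670 and was nearly equal in area, 371 in TAZ-CAMTA1 and 356 in CAMTA1, while the summit −log10 p was 6.37 and 5.30. Its TAZ-CAMTA1 peak was 235 bp wide and the CAMTA1 peak 354 bp. The nearest peak of another list, of YAP-TFE3, was 1188 bp away, and the peaks of the other 4 lists were 8845 bp or more away.

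The second, on chromosome 6 from 111862174 to 111862530, leaned to CAMTA1, with areas of 328 and 344 and summits of 6.10 and 6.69. On chromosome 9, 90468777 to 90469191, the site ranked next with 364 and 313. It was followed by a site on chromosome 16, 29685448 to 29685969, with 431 and 299, which lay 1327 bp from a constitutive site. These 4 sites were 354 to 522 bp wide, above the 95th percentile of the set in 2 cases.

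The fifth, on chromosome 1 from 209568607 to 209569214, was the other of the 10 that was larger in CAMTA1, with areas of 296 and 400. The sixth, on chromosome 3 from 141118089 to 141118503, was 2.38 times larger in TAZ-CAMTA1, at 697 and 293, with summits of 6.94 and 5.30. The seventh, on chromosome 1 from 114489785 to 114490612, was the widest of the 10 at 828 bp, with areas of 347 and 290, and the nearest peak of another list was 15249 bp away.

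At the eighth, on chromosome 6 from 41504549 to 41505087, the areas were 544 and 273. The ninth, on chromosome 10 from 112594518 to 112594975, had the largest TAZ-CAMTA1 area of the 10, 795 against 268, and lay 31653 bp from a constitutive site and 15954 bp from the nearest peak of another list. The tenth, on chromosome 11 from 121938815 to 121939250, had 317 and 257, and an EV peak lay 352 bp away. Peaks of other lists were thus 352 to 15954 bp from these 10 sites, each farther than the median of 315 bp of the set.

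The most unequal sites, taken among the 2290 with a larger area of at least 100, joined a clear peak of 1 list to a peak near the lowest area in the other. The most tilted to TAZ-CAMTA1 lay on chromosome 9 from 18985510 to 18986057, with areas of 370 and 20.4, a ratio of 18.1, and peaks of 548 and 48 bp. The next were on the X chromosome from 151144792 to 151145251, with 443 and 25.1, and on chromosome 1 from 204323800 to 204324194, with 349 and 20.6. The most tilted to CAMTA1 was on chromosome 2 from 232406329 to 232406685, with 26.5 in TAZ-CAMTA1 and 331 in CAMTA1, a ratio of 12.5 in favour of CAMTA1. On chromosome 8 from 133714403 to 133714742 the areas were 20.3 and 254, and on chromosome 3 from 124602544 to 124602973 they were 29.7 and 337. In all 6 the weaker peak had an area under 30, close to the lowest area of any list.

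The sites at the extremes of distance differed in strength. The nearest to a constitutive site lay on chromosome 3 from 58373722 to 58373866, 3 bp from it, with areas of 104, above the 75th percentile of 94.2 for TAZ-CAMTA1, and 22.2, near the 5th percentile of 21.8 for CAMTA1. The next, on chromosome 21 from 43103948 to 43104243, was 4 bp away, with 67.0 and 91.4. The farthest, on chromosome 14 from 47060389 to 47060609, was 1337554 bp from a constitutive site, with areas of 75.0 and 46.5. Peaks of YAP5SA and YAP-TFE3 lay 177 bp from it, of TFE3 178 bp, of EV 199 bp and of TAZ4SA 1436 bp. The second farthest, on chromosome 21 from 22536412 to 22536498, was 1026081 bp away and 36059 bp from any peak of another list, with areas of 21.5 and 24.4, the first below the 5th percentile of 22.3.

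The set changed with the strength asked of a peak. When only peaks whose summit reached 4 were used in every list, 4128 sites were held by TAZ-CAMTA1 and CAMTA1 alone, of which 1616 were among the 7060. At 5 or more there were 2380, and 45 of these (1.89%) were among the 7060. The rest lay in sites that also had a peak of another list when all peaks were used. When peaks up to 500 bp apart were merged, 2793 sites were left, which took in 2485 of the 7060 (35.2%). Leaving the TFE3 list out of the rule gave 8109 sites and leaving the EV list out gave 8468. The other 3 lists were not left out in turn. YAP-TFE3 was the list that most often joined the pair, at the 7996 sites given above, so the count rests most on that list. Genes and sequence at the sites were not analysed here.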

How the data were processed

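ATAC-seq libraries of SW872 cells with 7 vectors were grouped by their titles. According to the study's methods, the authors trimmed reads with NGmerge, aligned them to hg19 with BWA-MEM and called peaks with Genrich in ATAC-seq mode, removing PCR duplicates, artefact regions and the mitochondrial genome; the submitters' processing notes name mm8 and Bowtie 0.12.2 instead. The last peak of chromosome 1 ends at 249240671, beyond the 248956422 bases of hg38, so the positions were read as hg19, counted from 1, and the hg38 annotation was not used. Calling is described per replicate, while 1 list per vector was deposited and how libraries were combined is not given in the sources used here.

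For each peak the authors deposited a signal (the area under the curve), the −log10 p of its summit (a q-value was not used), the summit position as another whole number, and a score, not used. Peaks were merged and described with Python 3.11.15, pandas 2.3.3 and SciPy 1.17.1; the scripts were tested on simulated peaks. Distances are the bases between the edges of 2 intervals. Intervals of shares are Wilson and those of medians are binomial (order statistics), at 95%; they cover counting error only and treat sites as independent. The share of all features that met a call is given beside the first count of it.

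Named were the 10 sites with the largest smaller area, the 3 most unequal in each direction with a larger area of at least 100, the 2 nearest to and farthest from a constitutive site, and the 3 richest 1-Mb windows (4, because of a tie). The sites, lists and settings were chosen with earlier results of these data known. Settings tried were a summit −log10 p of at least 4 or 5, equal numbers of peaks (152702), autosomes, an overlap of 50% of both peaks, 250-bp windows to each side of summits, and merging within 500 bp.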

Additional observations from a re-analysis of the deposited data

How the results depend on the processing

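The count of 7060 sites became 4128 when summits had to reach 4, 2380 at 5, 2546 with equal numbers of peaks, 3880 with fixed windows and 2793 when peaks up to 500 bp apart were merged. Under those 5 settings in that order, the share with the larger TAZ-CAMTA1 area was 63.0, 67.9, 64.4, 58.1 and 57.8%, and the share with the higher summit was 52.3, 55.5, 52.0, 50.6 and 50.6%. The median width was 192, 351, 202, 547 and 230 bp, the median distance to a constitutive site 4667.5, 9485, 4395.5, 5499.5 and 7863 bp, and the share with another such site within 10 kb 12.4, 7.65, 8.05, 9.07 and 6.62%. When both peaks had to overlap by 50%, the values were 53.8% for area, 47.7% for summit, 116 bp for width and 13.3% for the share within 10 kb. Fixed windows set the width by construction, and the cause of the other changes was not tested. At a summit of 5 or more only 45 of the 2380 sites (1.89%) were among the 7060, so those values describe mostly other sites.

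The settings chosen after seeing the data left out the TFE3 list (width 144 bp, share within 10 kb 21.6%) or the EV list (144 bp, 23.1%, distance 3497 bp), or merged touching peaks. Of 60 values under alternatives, 21 stayed within counting error, or within 1.5 times for the count, and 39 did not. The area share stayed above 50% under all 10 settings. The summit share was under 50% in the set as reported and in 5 settings and above it in the other 5, so no direction is given for it. No paired analysis was possible because each list stands for a vector without separate library values; leaving out a library was not run for the same reason, and results near gene starts were not run without an annotation of the same build.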
